A study of Mus musculus with 2 samples.

Results

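KLF4 occupancy was profiled by chromatin immunoprecipitation with sequencing (ChIP-seq) in frozen BCA tissue of atherosclerotic lesions, and 224 of the 2251 peaks called in WT tissue form the set described here. These are the WT peaks on chromosomes 1 to 19 and X that overlapped no KO peak by 1 bp and whose midpoint lay in no protein-coding, pseudogene or transcribed pseudogene span of the RefSeq annotation of GRCm38.p6. Of the 1985 WT peaks on these chromosomes, 1707 (86%) had no KO partner, and 1483 of those lay in coding or pseudogene spans. Of the 409 WT peaks outside these spans, 54.8% had no KO partner, against 93% of those in coding spans and 97.3% of those in pseudogene spans. The members were chosen by the authors' peak calls in both libraries. Absence from the KO list and position outside genes were therefore the criteria of choice and not findings, and no test was run on either.

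There was 1 WT and 1 KO library, both from C57BL/6 mice on a Western diet and both made with the same antibody lot against KLF4. The labels do not name the gene deleted in the KO, the cells in which it was deleted, the age of the animals or whether tissue was pooled, and they give the tissue as a mixture that includes smooth muscle cells, epithelial cells and macrophages. The KO list held 1153 peaks, and neither list gives read counts. A site without a KO peak is one where none was called at the authors' threshold. Fewer reads in the KO library and less occupancy there cannot be told apart, since both would remove peaks.

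KLF4 is a zinc finger transcription factor that binds GC-rich and CACCC-type motifs at promoters and at distal enhancers. In the vessel wall it is known for its part in the loss of contractile gene expression by smooth muscle cells. Sequence outside protein-coding genes holds enhancers, lncRNA genes, genes of small and structural RNAs, gene clusters that arose by duplication, and repeats. A peak there can therefore fall on very different kinds of sequence.

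Of 32619 promoter windows in the RefSeq table used, each of 300 bases from 250 before to 50 after a start, 4 met a member, and 4 members met a window. The table does not hold every start. It has 0 windows for the 7SL RNA genes Rn7s1 and Rn7s2, whose whole spans were nearly covered by members, and its 2 windows for Tmprss5 lie inside the gene, away from the end of the span where a member lay. The 4 windows are shown because the table gives some of a member's own bases there. Windows of lncRNA genes are printed whole and those of coding genes up to the start. Capitals mark the bases inside the peak.
Gm46178 (lncRNA, chr1:191120652-191120951, plus strand): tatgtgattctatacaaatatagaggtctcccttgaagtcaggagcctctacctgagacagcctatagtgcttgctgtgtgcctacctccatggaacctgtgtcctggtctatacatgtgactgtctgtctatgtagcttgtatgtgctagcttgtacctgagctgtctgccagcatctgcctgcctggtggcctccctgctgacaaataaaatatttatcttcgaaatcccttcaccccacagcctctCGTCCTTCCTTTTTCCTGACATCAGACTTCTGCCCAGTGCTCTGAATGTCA
Tmem267 (coding, chr13:119487836-119488085, plus strand): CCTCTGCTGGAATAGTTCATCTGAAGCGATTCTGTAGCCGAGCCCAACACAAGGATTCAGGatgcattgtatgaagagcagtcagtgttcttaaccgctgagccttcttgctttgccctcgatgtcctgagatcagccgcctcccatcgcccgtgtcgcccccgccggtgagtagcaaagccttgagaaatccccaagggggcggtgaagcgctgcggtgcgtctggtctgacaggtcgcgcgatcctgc
Gm14279 (coding, chr2:157523151-157523400, minus strand): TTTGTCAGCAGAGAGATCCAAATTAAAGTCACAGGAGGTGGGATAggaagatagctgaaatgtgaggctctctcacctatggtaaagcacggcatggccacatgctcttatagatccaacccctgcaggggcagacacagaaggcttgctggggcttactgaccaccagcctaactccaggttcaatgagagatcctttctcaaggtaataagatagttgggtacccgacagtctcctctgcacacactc
Gm13822 (lncRNA, chr5:114922212-114922511, minus strand): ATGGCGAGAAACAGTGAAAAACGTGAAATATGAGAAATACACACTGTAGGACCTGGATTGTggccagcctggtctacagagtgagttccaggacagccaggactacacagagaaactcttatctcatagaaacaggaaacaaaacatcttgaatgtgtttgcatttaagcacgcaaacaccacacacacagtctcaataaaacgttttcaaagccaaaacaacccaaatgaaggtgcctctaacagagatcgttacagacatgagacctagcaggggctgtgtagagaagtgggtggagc
In Gm46178 the peak began 1 base before the annotated start and took in all 50 transcribed bases of the window, 51 bases in all. It scored 276.4, while the peaks at the other windows scored 56.6 (Tmem267), 70.2 (Gm14279) and 75.4 (Gm13822) and covered only the far end of the window, from position -250 to -190, -206 and -190 relative to the start. The GC content of the whole windows was 48.0% for Gm46178 and 44.3% for Gm13822, where all windows had a median of 53.0% and quartiles of 46.0 and 61.7%. Over the 250 bases before the start it was 58.0% for Tmem267 and 49.6% for Gm14279, where all windows had a median of 52.4% and quartiles of 45.2 and 61.2%.

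On both strands, the KLF-type motif GGGNGTGG was in none of the 4 printed windows, and neither was the GC box GGGGCGGG. The shorter CACCC was found once in the window of Gm46178 and once in that of Gm13822, both times outside the bases of the peak. A match to GGGNGTGG with T or G at the open position would also hold CACCC on the other strand. Over all windows these motifs were found in 17.7, 16.6 and 57.7%, and over the first 250 bases in 15.97, 15.1 and 52.1%. The bases of the other 220 members were not analysed here.

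The second- and eighth-ranked members lay on Rn7s2 and Rn7s1, genes of 7SL RNA, the RNA scaffold of the signal recognition particle that delivers ribosomes to the endoplasmic reticulum. The peak on Rn7s2 (gene 103949, chromosome 12, 69361183 to 69361481) scored 594.3, and that on Rn7s1 (gene 103948, chromosome 12, 69159295 to 69159593) scored 308.0. Each gene spans 299 bp, and the peaks had nearly the same ends. On Rn7s2 the peak was 299 bp wide and was offset by 2 bp at both ends. On Rn7s1 it was 297 bp wide, began 1 bp before the gene and ended 3 bp before the gene's end. Each span held 1 WT peak, no other WT peak and no KO peak lay within 10 kb, and the nearest KO peaks were 292.6 and 494.5 kb away. The 2 genes are near-identical copies, so a read from one could be placed on the other, and how the authors placed such reads is not given in the sources used here. Rps29, a gene of a small-subunit ribosomal protein, lay 256 bp from the midpoint of the Rn7s1 peak.

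**Figure D1:**
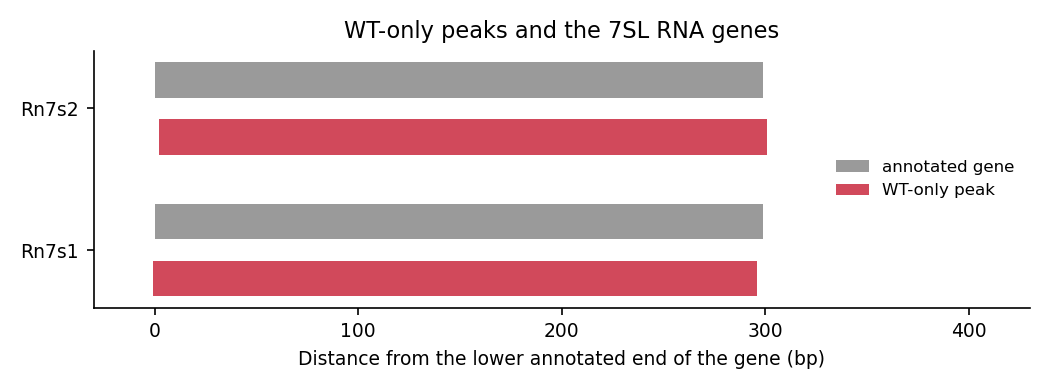
Extent of the WT-only peaks (red) and of the annotated 7SL RNA genes (grey) in bp from the gene's lower annotated end. Both peaks cover the 299 bp gene with ends that differ from the gene's by 1 to 3 bp.

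Other members with high scores also lay beside small RNA genes. Within 1 kb of a small or structural RNA gene lay 10 of 224 members (4.46%, 95% Wilson interval 2.44 to 8.02%). This class includes genes annotated as miscellaneous RNA, some of them long. The 1 kb around such genes made up 0.411% of the 1556 Mb outside coding and pseudogene spans. The same share was 2.70% (5 of 185) for WT peaks shared with KO outside these spans and 0.248% (1 of 404) for KO-only peaks there. For WT-only peaks it was 2.93% (32 of 1092) in coding spans and 0.512% (2 of 391) in pseudogenes. The 0.411% of sequence is no background for peaks inside such spans. The peak 271 bp from the small nuclear RNA gene Gm23378 on chromosome X (104001061 to 104001143) was 83 bp wide and scored 443.1. The peak on chromosome 9 at 110281192 to 110281353 scored 430.1 and reached into the microRNA gene Mir6236, inside the lncRNA gene Gm39429. Its last base is the first base of the mature microRNA, whose sequence is shown with the seed (bases 2 to 8) in capitals because the peak ends on it.
mmu-miR-6236 (chr9:110281353-110281371, plus strand): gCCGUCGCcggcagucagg
This 19-base sequence had a GC content of 78.9%. The remaining 6 peaks scored 51.9 to 102.6 and lay in or near Gm9919, Gm3912, a lysine tRNA gene (n-TKctt9) and small nucleolar RNA genes. Gm9919 (chromosome 10, 58239034 to 58252702) and Gm3912 (chromosome 7, 7359871 to 7374625) are miscellaneous RNA genes with long spans and are not small. The small nucleolar RNA gene Gm25210 was the nearest for more than 1 peak, so the 10 members do not stand for 10 separate genes.

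The small nucleolar RNA genes belong to Snhg14, the long host transcript of the imprinted region of chromosome 7 that carries the Snord115 and Snord116 clusters. Snhg14 held 4 members, with scores of 67.5, 67.5, 59.9 and 52.9, all below the WT list's median of 88.3. Of these, 3 lay within 1.75 kb of each other (59768782 to 59770528), and 1 lay 247 bp from Snord116l2 (59876611 to 59876765). A shared WT peak and a KO peak lay inside the group of 3, and the gap to the KO peak was 5 bp at its smallest. Within Snhg14 and 10 kb around it were 4 other WT peaks and 3 KO peaks, so this gene held KO peaks as well.

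The highest score in the set, 826.9, belonged to a peak far from any coding gene. It lay on chromosome 8 at 15519772 to 15520180, was 409 bp wide and was 372.6 kb from Csmd1, which encodes a large membrane protein with CUB and sushi domains. A peak of score 591.4 on chromosome 15 (47539995 to 47540221) was 40.5 kb from the related gene Csmd3. The peak next in score, 483.8, lay on chromosome 14 at 98519540 to 98519732 and was 349.9 kb from Dach1, a transcription factor gene. Of the other members in the top 10, 1 lay 8.98 kb before the start of Cerk, the ceramide kinase gene (chromosome 15, 86195123 to 86195353, score 309.6). The others lay 34.3 kb from the amino acid transporter gene Slc6a14 (chromosome X, 21680563 to 21680639, score 307.4) and 18.8 kb from Camsap2, which encodes a protein of microtubule minus ends (chromosome 1, 136364889 to 136364970, score 301.8). These last 2 peaks were narrow, at 77 and 82 bp. The nearest coding gene of each of the 10 held 0 WT peaks in its own span, and none of the 10 had a KO peak within 10 kb. Among all members, 16.5% had a KO peak within 10 kb. The nearest coding gene held a WT peak for 10.1% of members at most 10 kb from it, 10.3% at 10 to 100 kb and 8.82% farther away. Counts of 0 in 10 are near these shares and are no trait of the top 10.

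Beyond 100 kb from any coding gene, the highest peaks after those near Csmd1 and Dach1 scored 234.3, 221.6 and 183.7. The first lay on chromosome 18 (11288606 to 11288841), 203.1 kb from Gata6, which encodes a transcription factor of the vessel wall and the heart. The second lay on chromosome 6 (69516353 to 69516587) inside Igk, the immunoglobulin kappa light chain locus (67555636 to 70726754). Its midpoint was 7269 bp from the nearest variable segment, Igkv13-57-2, which is annotated as a pseudogene segment. The third was a 102 bp peak on chromosome 14 (19278140 to 19278241), 190.4 kb from Gm41099. The Igk peak was the only member in an immunoglobulin locus. Immunoglobulin segments are not annotated as protein-coding spans, so they do not count in its distance from coding genes.

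Distance to coding genes varied widely and had little relation to score. The median member lay 22.3 kb from the nearest coding span (quartiles 8.55 and 145.8 kb, range 0.146 to 1465.5 kb). Within 1 kb lay 8 members (3.57%, 1.82 to 6.89%), within 10 kb 69 (30.8%, 25.1 to 37.1%) and beyond 100 kb 68 (30.4%, 24.7 to 36.7%). Of the sequence outside coding and pseudogene spans, 15.9% was within 10 kb of a coding span. The share within 10 kb was 12.4% (8.43 to 17.96%) for shared WT peaks outside these spans and 17.6% (14.2 to 21.6%) for KO-only peaks outside them, and their medians were 116.6 and 57.7 kb. WT-only peaks in pseudogenes had 38.9% (34.2 to 43.8%) within 10 kb and a median of 20.4 kb. That set keeps peaks whose midpoint also lay in a coding span, at a distance of 0, which the rule bars for members. The 2 sets are therefore unlike on this distance. At 10 kb the members' Wilson interval does not overlap those of the shared and KO-only sets outside genes. The intervals cover counting error over peaks of single libraries, and no test was made. Median scores were 70.2 within 10 kb, 72.1 between 10 and 100 kb and 66.4 beyond 100 kb, and the shares that scored at least 100 were 24.6, 29.9 and 14.7%. Across the 224 members, Spearman's rho between score and distance was -0.024, given as a description since the peaks share 1 library.

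**Figure D2:**
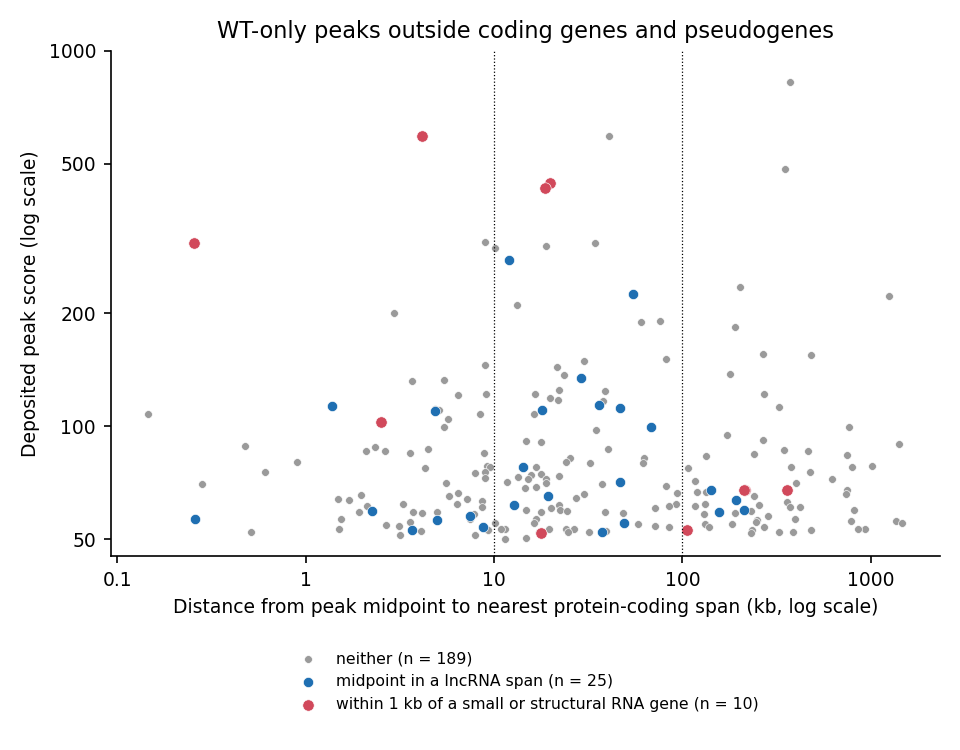
Deposited score against distance from the nearest protein-coding span (kb) for the 224 members, both on log scales, with dotted lines at 10 and 100 kb. Red points lie within 1 kb of a small or structural RNA gene (10) and blue points are the other members in lncRNA spans (25, since 4 of the 29 are drawn red). High and low scores occur at all distances, and 4 of the 10 highest points are red.

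Of the 69 within 10 kb, 41 (59.4%, 47.6 to 70.2%) lay before the start of the nearest coding gene, 22 (31.9%, 22.1 to 43.6%) beyond its end, and for 6 the table used gave no strand. Shared WT peaks outside genes had a like split, with 13 of 23 (56.5%, 36.8 to 74.4%) before the start and 7 (30.4%, 15.6 to 50.9%) beyond the end. Among KO-only peaks outside genes within 10 kb, 29 of 71 (40.9%, 30.2 to 52.5%) lay before the start and 28 beyond the end. The 3 intervals for the share before the start overlap. WT-only peaks in pseudogenes within 10 kb of a coding span lay before the start in 27 of 152. That class includes peaks whose midpoint also lay inside a coding span, which count as not before the start. Its share therefore cannot be set beside the others. Among genes with a given strand, the nearest member before a start lay at Tmprss5, a transmembrane serine protease gene, at 146 bp (chromosome 9, 49079036 to 49079221, score 107.7). The members at Tmem267 and Gm14279, shown above, came next. The midpoint of the Tmem267 member also lay in the lncRNA gene 3110070M22Rik, and a KO peak lay 2.75 kb from it. The member 256 bp from Rps29 is not in this order, because no strand was given for that gene. Cd36, the scavenger receptor gene that takes up oxidised lipoprotein in macrophages, had 1 member on each side. They lay 8.89 kb before the start (score 146.0, width 66 bp, the narrowest member) and 4.95 kb beyond the end (score 58.9). Cd36 was picked after the values were seen. Of the 13 macrophage markers listed beforehand, 0 had a member within 10 kb.

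Of the 69 members within 10 kb of a coding gene, 7 (10.1%, 5.002 to 19.5%) had a nearest gene with a WT peak in its span, as did 9 of 87 (10.3%, 5.54 to 18.5%) at 10 to 100 kb and 6 of 68 (8.82%, 4.11 to 17.9%) farther away. Of all 21627 coding genes, 828 (3.83%) held a WT peak. That share counts genes while the others count members, so they cannot be compared directly. Members with the same nearest gene were counted separately. The 4 members in Snhg14, all nearest to Snrpn, were among the 6 beyond 100 kb. Mid1 and Tmem267 were each the nearest gene of more than 1 of the 7 within 10 kb. The intervals take no account of such groups. Gene length was not matched. No member had a WT peak of a coding span or of a pseudogene within 1 kb, and 6 and 4 had one within 10 kb. A WT peak shared with KO lay within 1 kb of 16 members and within 10 kb of 28. These counts cannot be compared, because the rule keeps members out of coding and pseudogene spans. Only 8 members lay within 1 kb of a coding span and 8 within 1 kb of a pseudogene span, while shared peaks have no such bar.

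Long noncoding RNA genes held about as many members as their share of the sequence. The midpoint of 29 members (12.9%, 9.17 to 17.97%) lay in a lncRNA span, in 25 different genes, and such spans covered 11.3% of the sequence outside coding and pseudogene spans. The share was 13.5% for shared WT peaks outside genes and 12.6% for KO-only peaks outside genes. Members in lncRNA genes had a median score of 67.5 and the other members one of 70.2. After the peaks at Gm39429 and Gm46178, the highest lay in Gm32838 (chromosome 6, 146019798 to 146020007, score 225.6), Gm30636 (chromosome 16, 45352946 to 45353165, score 134.8) and Gm51701 (chromosome 9, 123926037 to 123926279, score 113.8). Next came 1700122E12Rik with a score of 113.3, Gm19951 with 112.1, Gm3787 with 110.5, Gm46533 with 109.6 and Astx5 with 99.3. For these genes the files and the annotation give a name and a place only. A KO peak lay 0.303 kb from the peak in Gm19951 and 1.40 kb from that in Gm51701, while those in Gm46178, Gm32838 and Gm30636 had none within 200 kb.

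In 7 lists of coding genes with 102 genes in all, covering extracellular matrix, smooth muscle contraction, the KLF family with pluripotency factors, and markers of macrophages, endothelium, epithelium and T cells, 0 genes had a member within 10 kb of the span. Of all 21627 coding genes, 77 (0.356%) had one, so 0 of 102 is near the background and is no result about these lists. Cd36 was not on them. The count concerns peaks outside spans alone, because peaks within these genes do not belong to the set. Of 15 genes of structural and housekeeping RNAs found in the table, 2 had a member, Rn7s1 and Rn7s2. Of 16 genes that host small nucleolar RNAs, 1 had a member, Snhg14. Abundant nuclear or imprinted lncRNAs such as Malat1, Neat1, Xist and H19 had 0 of 15, and lncRNAs and microRNA hosts of vascular tissue had 0 of 18. Over all genes the share was 0.386% (49 of 12697) for lncRNA genes and 0.739% (31 of 4196) for genes of small and structural RNAs, so counts of 0 are near the background here too.

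Members scored lower than the other WT peaks with which they were compared, a description without a test. Their median score was 68.7 (quartiles 58.1 and 98.2, range 50.1 to 826.9), against 84.9 for WT-only peaks in coding spans, 99.7 for WT-only peaks in pseudogenes and 214.4 for shared peaks outside genes. A score of at least 100 was reached by 53 members (23.7%, 18.6 to 29.6%), 421 of 1092 WT-only peaks in coding spans (38.6%), 195 of 391 in pseudogenes (49.9%) and 142 of 185 shared peaks outside genes (76.8%). The KO list cannot be read on this scale, since the score depends on the library. Median widths were nearly the same in the WT-only classes. The median width was 154.5 bp for members, 154 bp in coding spans and 155 bp in pseudogenes, and it was 215 bp for shared peaks outside genes. A width over 400 bp was found for 14 members (6.25%) and 21.6% of shared peaks outside genes. The share was 2.20% for WT-only peaks in coding spans and 3.07% for those in pseudogenes. Of the 14 members, 8 lay in the densest bin of chromosome 5, described below. Score and width had a Spearman's rho of 0.084 over the 224 members.

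**Figure D3:**
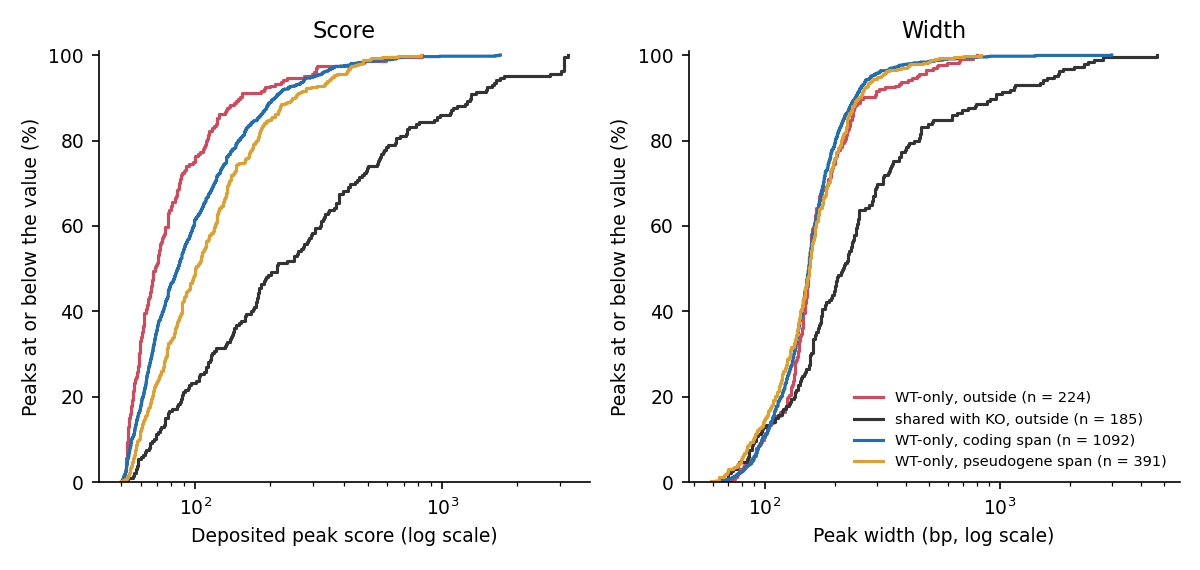
Cumulative share of WT peaks (%) at or below a given deposited score (left) and width in bp (right), on log axes, for members (red), shared peaks outside genes (black) and WT-only peaks in coding (blue) and pseudogene (yellow) spans. The score curve of the members lies to the left of the others, with a median of 68.7, and the width curves of the 3 WT-only classes nearly coincide up to about 200 bp.

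Some members had exactly the same score and width. A score held by 3 or more members was found for 33 of 224 (14.7%). The same share within each other class was 18.5% (202 of 1092) for WT-only peaks in coding spans, 11.8% (46 of 391) in pseudogenes, 3.24% (6 of 185) for shared peaks outside genes and 57.2% (231 of 404) for KO-only peaks outside genes. It depends on the size of the class. The 6 members with a score of exactly 52.41 were all 157 bp wide and lay on 5 chromosomes, the 4 with exactly 52.89 were all 155 bp wide, and the 4 with exactly 53.37 were all 153 bp wide. Among narrow members the tied scores were higher. The 3 at 122.07 were 81 to 92 bp wide, and the 5 at 77.71 were 90 to 103 bp wide. Of the 24 members under 100 bp, 11 had such a tied score and 11 lay on chromosome X, and their median score was 93.8. The reads behind these peaks were not analysed here.

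KO peaks lay close to some members. A KO peak lay within 100 bp of 5 members, within 1 kb of 21 (9.38%, 6.21 to 13.9%), within 10 kb of 37 (16.5%, 12.2 to 21.9%) and within 100 kb of 77. Within 10 kb the share was 2.56% (28 of 1092) for WT-only peaks in coding spans and 2.30% (9 of 391) for those in pseudogenes. Just outside the limit were the Snhg14 peak 5 bp from a KO peak (score 67.5) and a peak 31 bp from one on chromosome 6 (44793116 to 44793318, score 155.3). Just inside it was a shared peak on chromosome X (123930658 to 123930796, score 75.5) with an overlap of 2 bp. At the limit of gene spans, 2 members overlapped a span although their midpoint did not, both 6 bp outside, at the pseudogenes Gm4202 (score 199.9) and Zfp36l1-ps (score 78.5). The WT-only peak left out by the smallest margin had its midpoint at the 13th base inside Gm17511 (score 209.9).

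Members lay unevenly on the chromosomes, and a few regions accounted for much of this. Chromosomes 5 and X held 30 members each, 13.4% of the set (9.54 to 18.5%), while they held 5.38 and 7.84% of the sequence outside coding and pseudogene spans. Shared peaks outside genes had 4.86% on chromosome 5 and 3.24% on chromosome X. KO-only peaks outside genes had 8.91% (6.51 to 12.1%) on chromosome 5, an interval that overlaps the members', and 2.97% (1.71 to 5.12%) on chromosome X. Chromosome 2 held only 4 members, 1.79% of the set, with 6.18% of the sequence. In bins of 1 Mb, 7 of the 152 bins with a member held 4 or more, and these 7 held 51 members (22.8%). Leaving them out, chromosome 5 kept 9 and chromosome X 14 of the other 173 members.

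**Figure D4:**
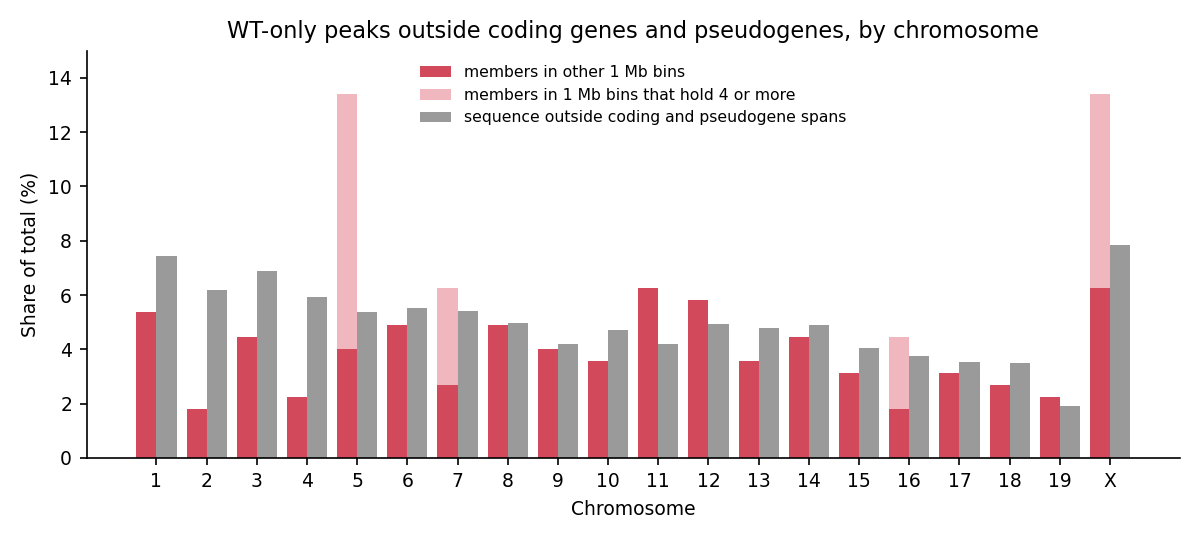
Share of the 224 members on each chromosome (red, with the part in 1 Mb bins of 4 or more members in light red) beside the share of sequence outside coding and pseudogene spans (grey), both in %. Chromosomes 5 and X stand out with 13.4% each, most of it on chromosome 5 in 2 bins.

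The densest region lay on chromosome 5 around the Speer4 genes, a rodent family of spermatogenesis-associated glutamate-rich proteins that arose by duplication. The bin from 15 to 16 Mb held 16 members and the one before it 5. The 16 peaks scored 50.3 to 143.7 with a median of 64.1, and their median width was 414.5 bp, against 154 bp for the 173 members outside dense bins. All 8 members over 400 bp in dense bins were among them, the widest of 769 bp. Next to them the bin held 6 shared WT peaks, 4 other WT-only peaks and 8 KO peaks, so the KO library was not without peaks in this region. The longest chain of members with gaps of at most 10 kb had 8 peaks over 29.1 kb (15482889 to 15512013) near Gm21149 and Gm21190, with scores of 56.5 to 117.3. It held no shared peak, and its nearest KO peak was 79.8 kb away. A second chain of 6 peaks over 12.2 kb (14995058 to 15007300) near Gm10354 and Gm17019 scored 55.4 to 80.3 and likewise held no KO peak.

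On chromosome X, 2 bins held 8 members each. The first, from 123 to 124 Mb, lay among the Cldn34c genes, members of the claudin family, and its peaks scored 53.9 to 99.3. In the second, from 126 to 127 Mb next to 4932411N23Rik, they scored 55.9 to 99.3. The bins also held 1 and 2 shared WT peaks and 3 KO peaks each. On chromosome 16, the bin from 3 to 4 Mb held 6 members (61.8 to 86.6) beside 8 shared WT peaks and 9 KO peaks. The remaining bins held 4 members each, in Snhg14 on chromosome 7 and near the vomeronasal receptor genes Vmn2r31 and Vmn2r32 on the same chromosome (51.9 to 63.5). Dense bins had few high peaks. A score of at least 100 was found for 3 of their 51 members and for 50 of the other 173. A KO peak lay within 10 kb of 12 of the 51 (23.5%) and 25 of the 173 (14.5%). Whether reads could be placed uniquely in these duplicated regions was not tested.

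**Figure D5:**
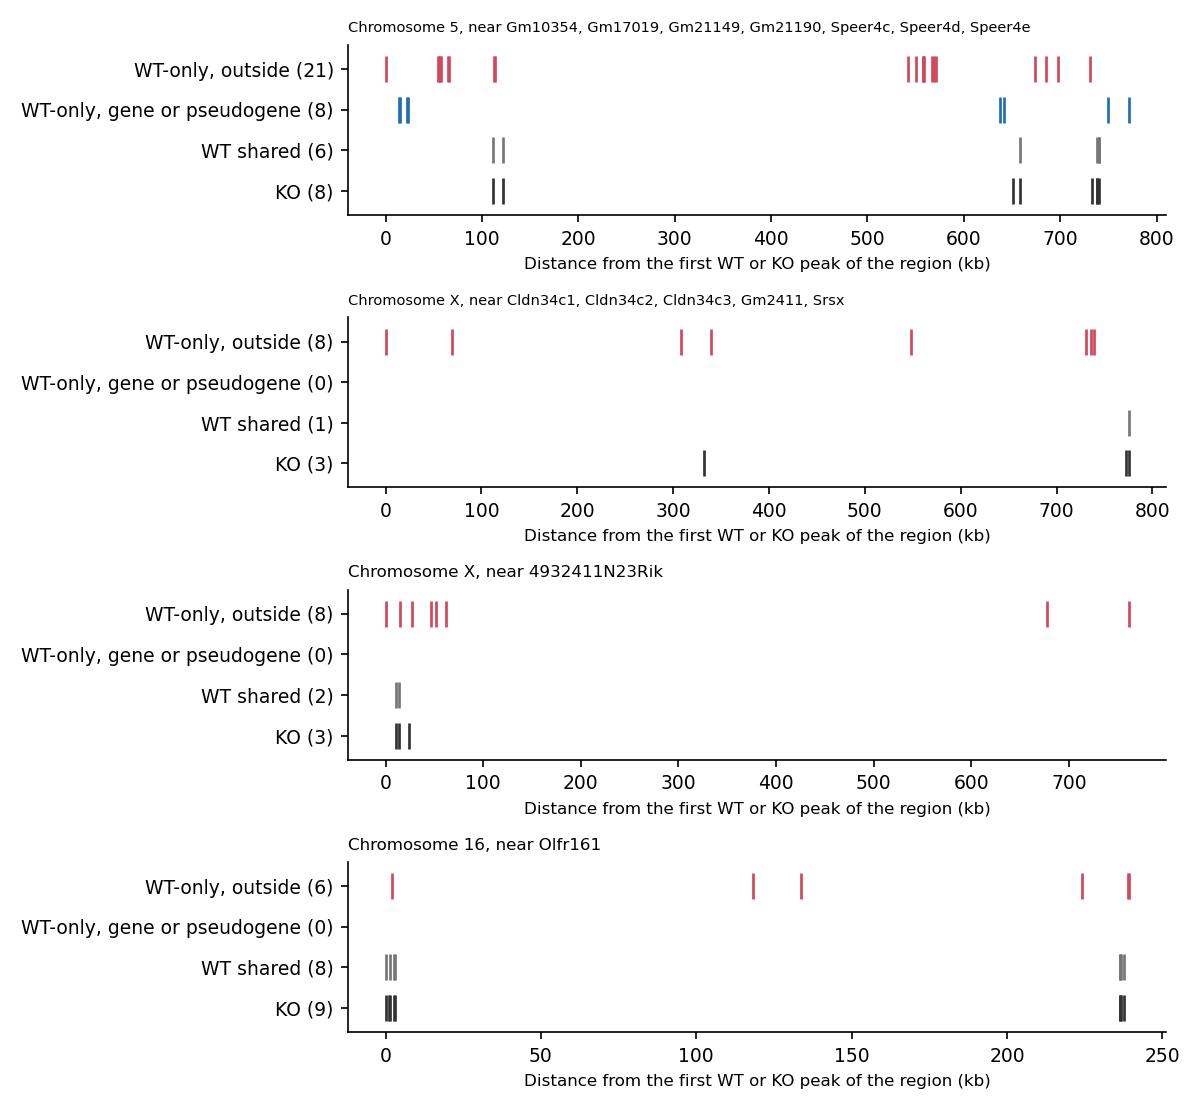
Positions of peaks in the 4 regions of adjoining dense bins with 5 or more members, titled by the nearest coding genes of the members, in kb from the first WT or KO peak of the region, with counts beside each row. Red marks are members, blue other WT-only peaks, grey shared WT peaks and black KO peaks. KO peaks occur in all 4 regions, 8 of them around the Speer4 genes, but the tightest groups of members there hold none.

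Most members nevertheless stood alone. At gaps of at most 10 kb the set formed 192 groups, of which 175 were single peaks, 10 were pairs and 7 held 3 or more. Another member within 10 kb was found for 49 members (21.9%, 17.0 to 27.7%), compared with 80 of 185 shared peaks outside genes for their own kind (43.2%), 563 of 1092 WT-only peaks in coding spans (51.6%) and 13 of 404 KO-only peaks outside genes (3.22%). Sets of different size differ in density, which touches these shares. The chain with the highest peak lay before the start of Cerk and had 3 peaks within 0.532 kb (chromosome 15, 86194822 to 86195353), with scores of 61.0, 84.6 and 309.6. The Cerk group was 9074 kb from the nearest KO peak. The chain near Cldn34c3 held 3 peaks (60.4 to 99.3), that near 4932411N23Rik 3 (66.0 to 84.0), and that near Mid1, a ubiquitin ligase gene on chromosome X, 3 (52.7 to 74.3) with 2 KO peaks among them. At the start of the chromosomes, within 1 Mb of the lowest annotated or called position, lay 4 members (1.79%, 0.697 to 4.50%) and 31 shared peaks outside genes (16.8%, 12.1 to 22.8%), on 1.03% of the sequence.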

How the data were processed

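Chromatin immunoprecipitation with sequencing was done on 1 WT and 1 KO library. The submitters' processing notes name the build mm10, SAMtools 0.1.18 and Bowtie 1.0. The authors deposited 1 MACS peak list per library, each read here as called on that library alone, with a score per peak read as 10 times the negative log10 of its p-value. Its version, control and settings are not named in the labels or the files. The lists give no read counts, so depth is unknown.

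Positions are printed 1-based. A WT peak that overlapped no KO peak by 1 bp is called WT-only. Gene spans came from the NCBI RefSeq table of GRCm38.p6, which shares the chromosome coordinates of mm10, with 21627 protein-coding, 10328 pseudogene and 12697 long noncoding RNA (lncRNA) spans on chromosomes 1 to 19 and X. Distances run from a peak's midpoint to a span, and gaps between peaks run edge to edge. Sequence outside coding and pseudogene spans was counted from the first to the last annotated or called base of each chromosome. Strands, promoter windows and the microRNA came from RefSeq tables of the same build. Intervals of shares are 95% Wilson intervals and cover counting error over peaks only.

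With 1 library per group no test of the genotypes was made. No genome sequence, repeat annotation or read alignment was used. The members, the gene lists and the rule for naming peaks were chosen with earlier results of these data known. Named are the 10 highest-scoring members, the 5 highest over 100 kb from coding genes, chains of 3 or more, the 10 highest in lncRNA genes, members of the gene lists and peaks at the limits of the rule. The 1 Mb bins and other single peaks were chosen after their values were seen. Alternatives changed the overlap rule, the placement, the span limits, the score limit, the list size and the counting of neighbours. The selection was tested on simulated peaks. Computations ran in Python 3.11.15 with scipy 1.17.1, numpy 2.4.6 and pandas 2.3.3, and plots were drawn in matplotlib 3.10.9.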

Additional observations from a re-analysis of the deposited data

Results flagged for a closer look

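Peaks outside the chromosomes described above were called in WT alone as well. Chromosome Y held 160 WT-only peaks of 193 WT peaks, beside 91 KO peaks. Unplaced or unlocalised sequences held 28 WT-only peaks of 73 WT peaks, beside 53 KO peaks. The WT-only peaks had a median score of 68.8 on chromosome Y and 56.3 on unplaced sequences, with median widths of 144.5 and 153.5 bp. They were noted because no comparison above used them and no control library was at hand.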

How the results depend on the processing

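The size of the set depended on score and gene distance. It was 53 at a score of at least 100, 63 at or above the WT median, 64 with the WT list cut to the number of KO peaks, and 139 with spans extended by 10 kb, while the other overlap, placement and span rules gave 203 to 251. The same 3 score settings, which remove low scores by construction, gave a median score of 138.1, 125.1 and 124.8, a median width of 193, 176 and 181 bp, and in all of them 0% of members with another within 10 kb. A smaller set also has fewer neighbours by construction. The share with another member was 10.7% at 1 kb, 35.3% at 100 kb, 13.3% when members within 1 kb were counted once, and 12.7% without the 7 dense bins, which was tried after seeing the data. Without these bins the densest chromosome held 8.09% of members. The shares within 10 kb of a coding gene and in lncRNA genes stayed within their Wilson intervals in every setting run on them. No paired analysis was possible because each group had 1 library. Depth is unknown and limits every statement about a missing KO peak.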
